A study of Taeniopygia guttata with 134 samples.

Results

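Gene expression in the bed nucleus (NST, nucleus of the stria terminalis) of male zebra finches that stayed with a known female throughout (the KFC setting) was compared between 5 males injected with lipopolysaccharide (LPS) and 5 males given the control injection. These 10 libraries were selected by their titles, which name region, setting and injection, from 46 NST libraries and 134 libraries in the whole series. The series covers 3 brain regions, NST, hypothalamus (HY) and nucleus taeniae (TN), in males kept alone (ISO), staying with a known female (KFC), rejoining a known female (KF) or meeting an unfamiliar one (NF). The LPS males carry the numbers 64, 65, 67, 69 and 71 and the control males the numbers 62, 63, 66, 68 and 70. All KFC males, controls included, had the company of the female, and no untreated group without injection was used. The labels write the control injection as S and the design text as C. No label states strain, age, dose or the interval between injection and sampling.

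LPS is a component of the outer wall of many bacteria. It is recognised by Toll-like receptor 4 on innate immune cells, which release cytokines such as interleukin-1 and tumour necrosis factor. These signals reach the brain through blood vessels, nerves and resident microglia, and sickness behaviour follows, with less feeding, movement and social contact. The bed nucleus belongs to the extended amygdala and to the network of forebrain and hypothalamic sites that govern social behaviour. In songbirds it holds neurons that make vasotocin, the avian form of vasopressin.

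The deposited table names genes by Ensembl identifier only, and 0 of its 18618 identifiers could be paired with a symbol through the RefSeq gene table used. Single genes are therefore given by identifier and without a function, and the region could not be checked against marker genes. Total counts ran from 8978142 to 11760798 in the 5 LPS libraries and from 9352799 to 10998992 in the 5 control libraries, and the means did not differ detectably (2-sided exact permutation p = 0.770, smallest possible 0.00794). Each of the 10 libraries correlated best with the median profile of NST among the 3 regions, at r = 0.984 to 0.992 across genes. The ranges overlapped, with r = 0.9708 to 0.9865 for the HY median and 0.9778 to 0.9882 for the TN median. The margin was smallest in LPS male 65, at 0.9838 with NST and 0.9823 with TN. The NST median includes these libraries, which favours NST. The second principal component, with 18.3% of the variance over 13478 genes, separated the injections, at -1.10 to 37.8 in LPS males and -31.1 to -1.41 in control males. The first component (20%) set LPS male 65, at 62.3, apart from the other 9 libraries, which lay between -33.3 and 10.9.

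LPS raised 126 of 14386 tested genes in NST of KFC males (0.876%) and lowered 19 (0.132%), by edgeR's quasi-likelihood test with Benjamini-Hochberg adjusted p under 0.05. The genes that rose had a median log2 change of 1.79 and those that fell one of -1, against 0.01 over all tested genes. Of the rises, 102 were larger than 2-fold (log2 above 1) and 56 larger than 4-fold, while 10 of the 19 falls exceeded 2-fold and 3 exceeded 4-fold. In bulk tissue, a change in RNA per cell and a change in the number of cells of a type cannot be told apart. In 100 of the 126 rises, 79.4%, the lowest LPS male lay above the highest control male, and over all genes tested 1.33% had this order. In 12 of the 19 falls, 63.2%, the highest LPS male lay below the lowest control male, against 0.577% of all genes tested. The calls were made on the same values, so these shares describe them and are no further test.

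The counts changed when single males were left out and with other fits. Without LPS male 67 the test called 79 rises, and the falls numbered 11 without LPS male 64 and 10 without control male 66. A fit to the 10 KFC libraries alone, in place of all 46 NST libraries, called 44 rises and 4 falls among 13351 tested genes, fewer than the 14386 tested above. DESeq2 called 179 rises and 43 falls, which included all 126 and all 19 of the genes above.

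**Figure D1:**
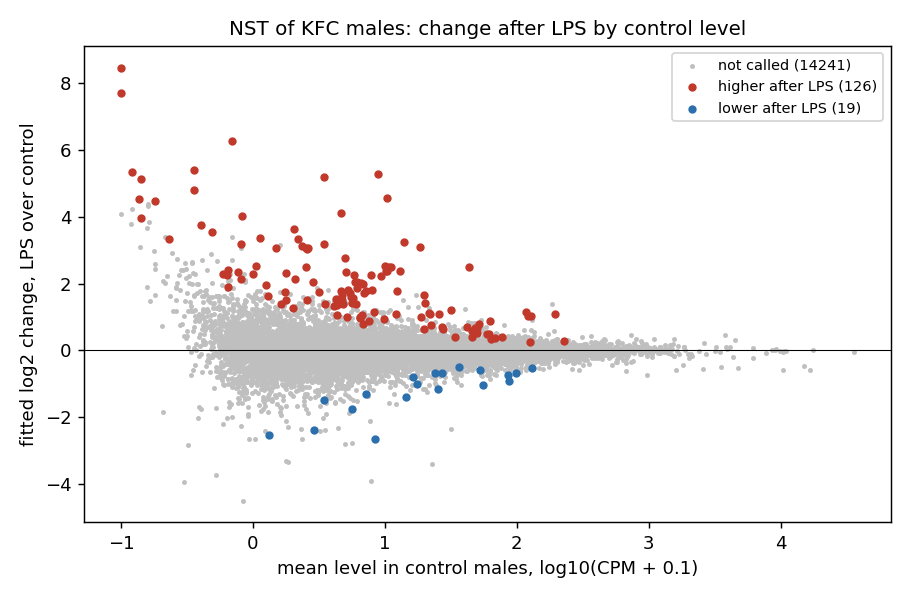
Fitted log2 change after LPS (LPS over control, vertical) against the mean level in the 5 control males (horizontal, log10 of CPM + 0.1) for each of 14386 genes tested in NST of KFC males. Genes that passed the test are coloured, 126 higher and 19 lower, and the rises above 5 on the log2 scale belong to genes with a mean under 10 CPM in controls.

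The rises were also sorted by the level of the gene without LPS. Levels are given as CPM (counts scaled to a common library size) and are not corrected for gene length. Among 980 tested genes with a mean under 1 CPM in control males, 23 rose (2.35%), with a median log2 change of 3.75. Of 4067 genes at 1 to 10 CPM, 60 rose (1.48%, median 1.79), and of 7287 genes at 10 to 100 CPM, 37 rose (0.508%, median 1). Among the 2052 most abundant genes, at 100 CPM or more, 6 rose (0.292%), by 0.24 to 1.14. The smallest rise that passed was 1.90 in the lowest class and 0.24 in the highest, so each median covers only changes of the size that could pass at that level. A gene under 1 CPM in these controls was tested only if enough other NST libraries, LPS males among them, held more reads, so the share that rose, the median and the lack of falls in the lowest class are in part set by the filter on low counts. The falls lay at higher levels, with 6 at 1 to 10 CPM (median -2.07), 12 at 10 to 100 CPM (median -0.76), 1 above that and none under 1 CPM.

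The gene with the largest fitted rise among called genes with a mean of at least 1 CPM was ENSTGUG00000013118. Its level was 18 CPM in LPS male 67, 3.44 in male 64, 1.40 in male 69, 0.401 in male 65 and 0.0966 in male 71, and no read was counted in any of the 5 control males. The LPS males thus differed widely, from 1 to 170 counts, and the single count of male 71 is not distinguishable from 0. In the control males of ISO, KF and NF the level in NST was at most 0.316 CPM, so the gene passed the filter on low counts through LPS libraries and its call is given as a description. The mean of the KFC LPS males, 4.66 ± 7.55 CPM (SD, n = 5), was at least 15.2-fold higher than the limit that a count of 0 allows, 3 counts per library or 0.307 CPM, which covers counting error only. The bound was 4.34-fold without male 67. The fitted log2 change of 8.47 depends on the prior count and is no bound. In the hypothalamus of the same males the gene reached 0.111 to 14.1 CPM in LPS males and 0 to 0.434 CPM in controls.

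The abundant end of the rises is represented by ENSTGUG00000005170, the called rise with the highest control level. It stood at 295, 265, 277, 257 and 273 CPM in LPS males 64, 65, 67, 69 and 71, against 254, 213, 228, 209 and 226 CPM in control males 62, 63, 66, 68 and 70. The groups did not overlap, although the lowest LPS male and the highest control male were only 257 and 254 CPM. The means of 274 ± 14.3 and 226 ± 17.6 CPM (SD, n = 5 each) corresponded to a fitted rise of 0.28 on the log2 scale (SE 0.07, edgeR adjusted p = 0.0337). The call was lost when any 1 of 7 of the 10 libraries was left out, with edgeR adjusted p up to 0.141, and in the fit to the 10 KFC libraries alone (adjusted p = 0.225).

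The largest fitted fall by the same rule was that of ENSTGUG00000007977. It stood at 0.344, 0.901, 1.80, 0.786 and 2.61 CPM in LPS males 64, 65, 67, 69 and 71, and at 12.1, 8.89, 7.82, 6.05 and 6.52 CPM in control males 62, 63, 66, 68 and 70. Every LPS male was below every control male, by more than 2-fold for the nearest pair. The log2 change was -2.67 (SE 0.41, edgeR adjusted p = 3.28e-05) and stayed between -3.09 and -2.44 when any 1 KFC library of NST was left out. The gene also passed as a fall in KF (log2 change -1.93, SE 0.36, adjusted p = 0.000639) and NF (-1.44, SE 0.35, adjusted p = 0.0276), while in ISO its change of -1.23 (SE 0.34) missed the threshold (edgeR adjusted p = 0.0601). The difference between the KFC change and the mean of the other 3 settings was -1.13 (SE 0.44), with an unadjusted p of 0.0138 from edgeR and an adjusted p of 1. In TN of KFC males the gene fell as far, by -2.73 (SE 0.27, edgeR adjusted p = 3.82e-08), and in HY by -1.36 (SE 0.31, adjusted p = 0.0115). The difference NST minus TN was -0.05 (SE 0.45) and NST minus HY -1.34 (SE 0.42), and neither passed after adjustment.

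Among the falls, ENSTGUG00000007514 had the highest control level. Its values were 72.8, 76.9, 91.8, 102 and 106 CPM in LPS males 64, 65, 67, 69 and 71, and 111, 106, 139, 152 and 144 CPM in control males 62, 63, 66, 68 and 70. LPS male 71 and control male 63 met at 106 CPM. The log2 change was -0.53 (SE 0.14, edgeR adjusted p = 0.0455), and the call was lost without any 1 of 6 of the 10 libraries and in the fit to the 10 KFC libraries alone (adjusted p = 0.185). The fall was larger in the hypothalamus of KFC males, at -0.86 (SE 0.16, edgeR adjusted p = 0.000700), and was -0.59 in TN (SE 0.12, adjusted p = 0.00637). The test of the difference between NST and HY did not pass for this gene (0.32, SE 0.11, edgeR adjusted p = 1).

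**Figure D2:**
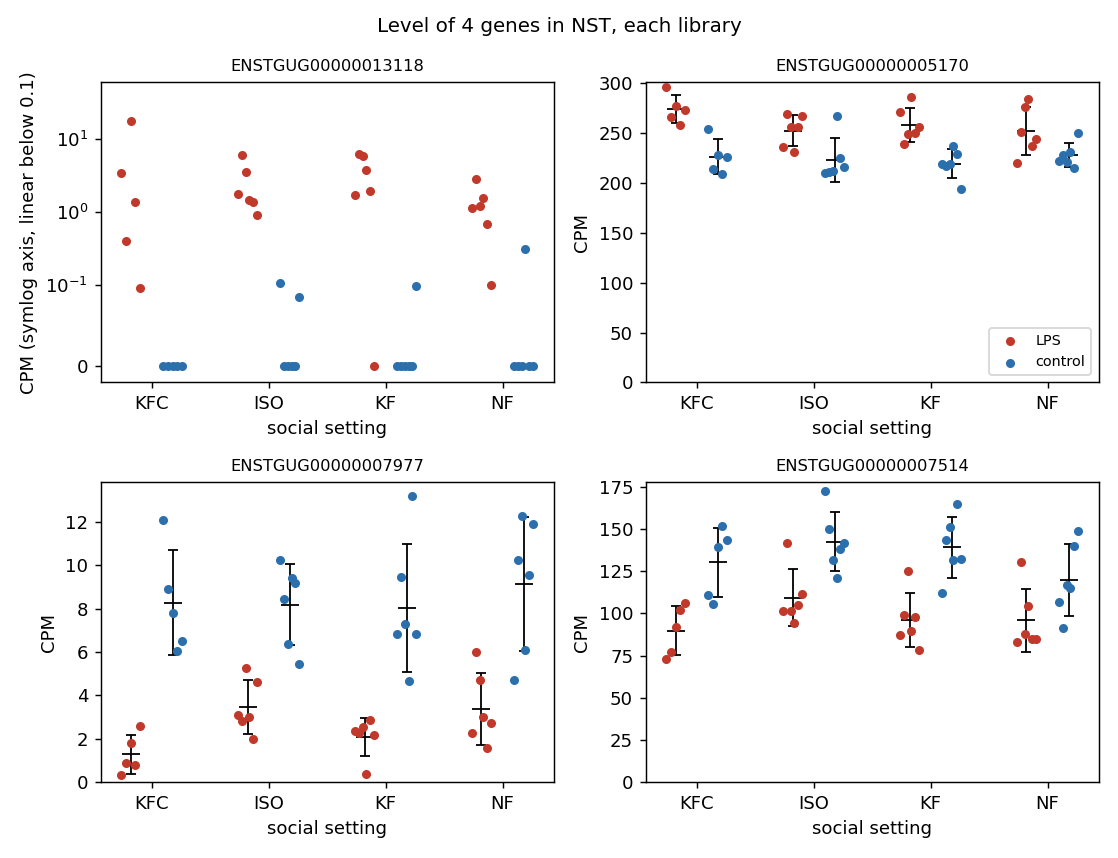
Level in CPM of 4 genes in each NST library, by social setting (KFC first), with LPS males to the left of control males. Points are libraries, and bars in the panels of ENSTGUG00000005170, ENSTGUG00000007977 and ENSTGUG00000007514 give mean and SD; the panel of ENSTGUG00000013118 has a symlog axis, linear below 0.1, and no bars. All 5 KFC controls sit at 0 for ENSTGUG00000013118 and the 5 KFC LPS males run from 0.0966 to 18 CPM.

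The strength of the response differed between the LPS males, and male 67 was the strongest. It had the highest level of the 5 LPS males in 98 of the 126 genes that rose, whereas male 65 had the lowest in 51. The 126 genes were called with male 67 included, which favours genes in which it was high, here and in the sums that follow. Without male 67, 79 rises were called, 74 of them among the 126. Leaving out a control male also lowered the count, to 92 without male 66, 88 without male 68 and 92 without male 70. The rises together took 10660 CPM in LPS male 67, 6183 in male 64, 4671 in male 69, 4594 in male 71 and 4308 in male 65, against 2212 to 2625 CPM in the control males. As a share of all reads the rises made up 1.03% in male 67, 0.409 to 0.6% in the other LPS males and 0.207 to 0.253% in the controls. The 19 falls took 355 to 467 CPM in LPS males and 611 to 762 CPM in controls. Male 67 did not lead here, with the lowest level of the LPS males in 0 of the 19 falls, against 9 for male 65 and 7 for male 64.

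**Figure D3:**
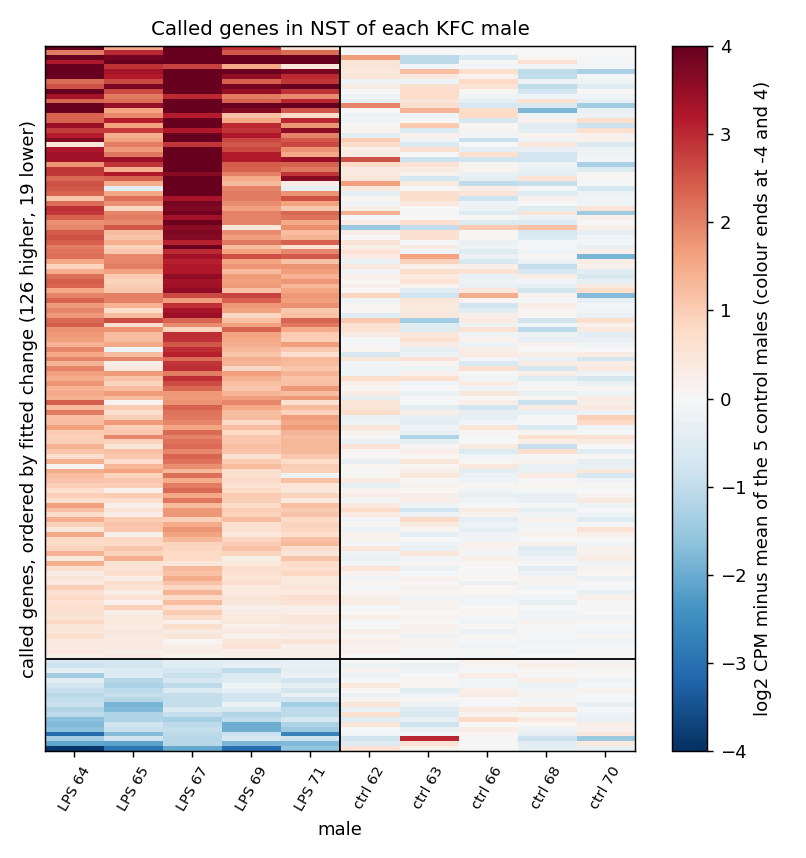
Level of each called gene (rows, 126 rises above the line and 19 falls below it) in each KFC male (columns, LPS males left), as log2 CPM minus the mean of the 5 control males. The column of LPS male 67 is the darkest in most rises; colours end at -4 and 4.

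Male 67 also came first, and male 65 last, in the rises among genes chosen without any KFC library. In the 36 NST libraries of ISO, KF and NF males, LPS averaged over the settings raised 383 and lowered 115 of 14116 genes (2.71% and 0.815%). In NST of KFC males, LPS male 67 exceeded every control male in 343 of the 383 rises, males 64, 69 and 71 did so in 264, 268 and 257, and male 65 in 211. A control male exceeded the other 4 controls in 126 (male 62), 98 (male 63) and 50 to 54 (males 66, 68 and 70) of these genes. The median distance from the control mean was 1.46 in LPS male 67 and 0.51 to 0.70 in the other 4 LPS males, on the log2 scale. For the 115 falls the largest median distance, -0.74, belonged to male 65, and that of male 67 was -0.41. The male with the largest rises was thus not the one with the largest falls.

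A response level was computed for each KFC library as the mean log2 CPM over these 498 genes, with falls counted negatively. In NST it was 2.64 in LPS male 67, 2.11 in male 64, 2.02 in male 69, 1.94 in male 71 and 1.90 in male 65, against 1.31, 1.29, 1.14, 1.13 and 1.11 in control males 62, 63, 70, 66 and 68. The groups were separate, with means of 2.12 ± 0.30 in LPS males and 1.20 ± 0.10 in controls (SD, n = 5 each), a difference of 0.93 (SE 0.14), and of 0.80 (SE 0.06) without male 67. The same 5 LPS males had levels of 1.90 to 2.71 in HY and 1.89 to 2.36 in TN, against 1.20 to 1.36 and 1.06 to 1.31 in the controls. Male 67 was again the highest in both regions, at 2.71 and 2.36. Male 65, the lowest LPS male in NST, came next in both, at 2.14 and 2.01. Male 64 was close to it in HY, at 2.13, and male 71 was close to it in NST. Without male 67 the SD of the LPS males was 0.115 in HY and 0.0945 in NST, so the rank of male 65 is not read as a difference between regions. Control males 62 and 63 had the 2 highest control levels in all 3 regions. The regions of a male share the animal and are not independent.

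**Figure D4:**
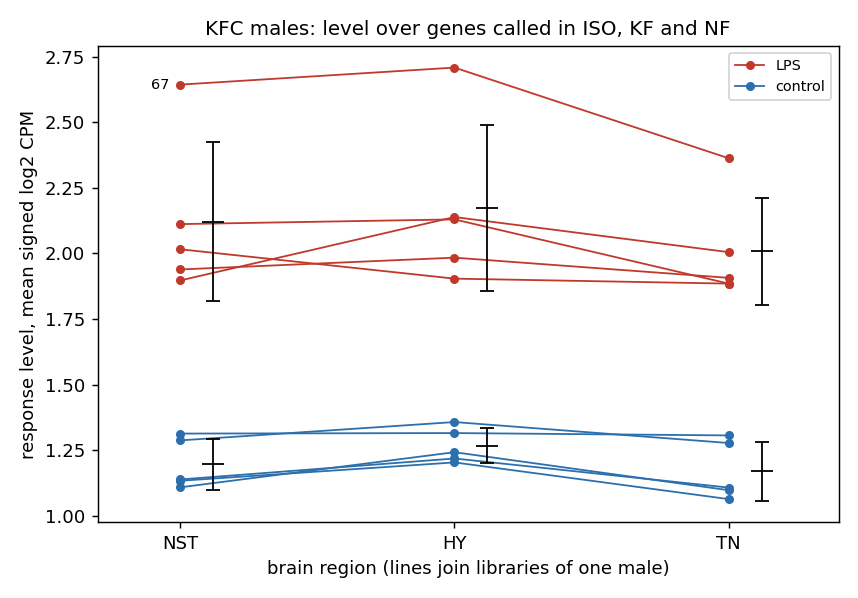
Response level, the mean log2 CPM over 498 genes called in ISO, KF and NF males with falls counted negatively, in NST, HY and TN of the KFC males. Lines join the libraries of a male, and bars give mean and SD of 5 males; every LPS male lies above every control male in each region, and male 67 is the highest.

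The LPS males spread more than the control males in the rising genes. Over the 383 genes, the median SD of log2 CPM was 0.55 among LPS males and 0.36 among control males, and the LPS males spread more in 288 of them (75.2%), against 56.8% of all tested genes. Without male 67 the SD was larger in the remaining 4 LPS males for 211 of the 383 genes (55.1%), against 53.8% of all tested genes. Male 67 was left out as the most extreme LPS male while all 5 controls were kept, which lowers the SD of the LPS males by construction, so the second comparison does not show equal spread.

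The response of KFC males was set against that of the other 3 settings. KF and NF males also had the company of a female and only ISO males were alone, so this contrast does not isolate company. Of the 383 genes that rose in ISO, KF and NF, 380 had a change above 0 in KFC, and 115 passed the KFC test as a rise (30%, where 0.876% of all tested genes did) and 0 as a fall. Their median log2 change was 0.89 in KFC and 0.85 in the other settings. Of the 115 falls, 111 had a change below 0 in KFC, 15 passed as a fall (13%, against 0.132% of all tested genes) and 0 as a rise, with medians of -0.50 in KFC and -0.45 in the others. The change was larger in KFC for 225 of the 383 rises and 65 of the 115 falls. Without male 67 the median over the 383 rises was 0.66 and 69 passed. Across the 498 genes the KFC changes and those of the other settings, which have no library in common, were correlated at Pearson r = 0.931 and Spearman rho = 0.941; genes are not independent replicates, and the rises and falls form separate clusters. Within the 383 rises r was 0.905 and rho 0.886.

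**Figure D5:**
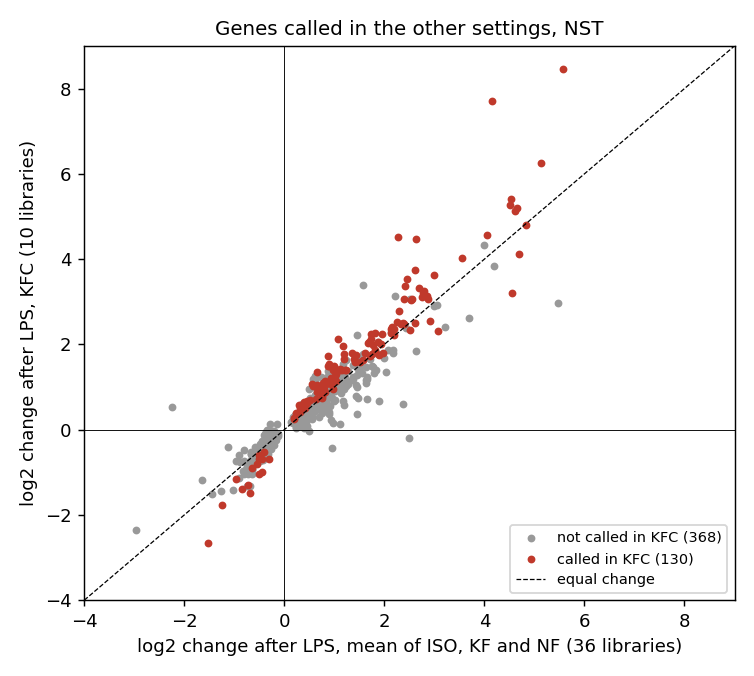
Log2 change after LPS in NST of KFC males (10 libraries, vertical) against the mean of ISO, KF and NF (36 libraries, horizontal) for the 498 genes called in ISO, KF and NF. The 130 genes also called in KFC are coloured, and the points lie along the dashed line of equal change.

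Seen from the KFC list, 87 of the 126 rises (69%) also passed in ISO, where 1.13% of tested genes rose, 96 (76.2%) in KF, where 1.12% rose, and 61 (48.4%) in NF, where 0.577% rose. The NST library of NF LPS male 3 correlated slightly better with the HY median (0.9877) than with the NST median (0.9872). That of NF control male 4 correlated better with the TN median (0.9874) than with the NST median (0.9853). The NF share and the lists that draw on NF were not computed without these libraries. Rises in all 4 settings numbered 56, and 19 rises passed in KFC and in none of the other settings taken singly. In the test of the mean of ISO, KF and NF, 115 of the 126 rises passed, most of these 19 among them (background 2.71%). The 56 shared rises had a median log2 change of 2.38 in KFC, 2.35 in ISO, 2.39 in KF and 2.08 in NF. The 19 had a median of 1.07 in KFC, 0.59 in ISO, 0.36 in KF and 0.50 in NF, and in each of the other settings at least 17 of the 19 had a change above 0. Of the 19 falls, 7 passed in ISO (36.8%, background 0.153%), 7 in KF (36.8%, background 0.195%) and 4 in NF (21.1%, background 0.0765%), and 8 in none of these. In the mean of the 3 settings 15 of the 19 falls passed as a fall (background 0.815%), part of these 8 among them. A further 2 of the 19 falls were not tested there. None of the 145 genes passed in the opposite direction in another setting. In the other direction, 63 genes passed in ISO, KF and NF, and 58 of these passed in KFC as well. The other 5 moved the same way in KFC by 1.08 to 2.96 on the log2 scale, with edgeR adjusted p from 0.0628 to 0.0810.

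The test of the difference itself found no gene whose response to LPS in KFC differed from the mean of ISO, KF and NF. With edgeR 0 of 14386 genes passed, 352 (2.45%) had an unadjusted p under 0.05, and DESeq2 called 0. Without LPS male 67, 1 gene passed. Against ISO, KF and NF singly edgeR also gave 0 genes, with 479, 434 and 436 at an unadjusted p under 0.05. The 126 KFC rises had a median difference of 0.27 from the other settings and the 383 rises chosen in the other settings one of 0.04, with a median SE per gene of 0.38 and 0.34. The 19 KFC falls had a median difference of -0.53, with a median SE per gene of 0.24, and all 19 were below 0. An unadjusted p under 0.05 was found for 7 of the 19 (36.8%, against 2.45% of all tested genes), and the smallest adjusted p, 0.117, did not pass (edgeR). Their median log2 change was -1 in KFC, -0.54 in ISO, -0.56 in KF and -0.365 in NF. The 115 falls chosen in the other settings had a median difference of -0.04. Each list favours the setting in which it was chosen. At these SE values differences in single genes could go undetected even above 2-fold. That of ENSTGUG00000007977, -1.13 on the log2 scale (SE 0.44), did not pass. The count of 0 therefore does not show equal responses.

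The 2 arms were also set against their counterparts. All KFC males carry numbers from 62 upward and males of the other settings numbers up to 59. Setting therefore cannot be told apart from anything that follows the numbering. Among control males 7 genes were higher in KFC than in the mean of the other settings and none lower (0.0487% of genes tested, edgeR). They included a gene of the 19 KFC falls (edgeR adjusted p = 0.0474) and a gene of the 383 rises chosen in the other settings (0.0469). Among LPS males 0 genes passed, with 1337 (9.29%) at an unadjusted p under 0.05, against 984 (6.84%) among control males. Of the 115 falls chosen in the other settings, 25 (21.7%) had such a p in LPS males, and 36 differences were above 0. Of the 383 rises 20 (5.22%) had such a p, and 217 differences were above 0. DESeq2 was not run for these 2 tests. The count of 7 was 4 to 6 when single KFC libraries were left out, the lowest of 4 without control male 62, 66 or 68. Without LPS male 65 or 67, 1 gene passed among LPS males.

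The response in NST was shared with the other regions of the same males. Of the 126 rises in NST, 96 (76.2%) passed as a rise in HY of KFC males, where 1.03% of tested genes rose, and 72 (57.1%) in TN, where 0.664% rose. Both other regions held 68 of them and neither held 26. The 126 genes had a median log2 change of 1.79 in NST, 1.74 in HY and 1.42 in TN. Of the 19 falls, 10 passed in HY (52.6%, background 0.27%) and 7 in TN (36.8%, background 0.158%), with medians of -1 in NST, -0.86 in HY and -0.60 in TN. These genes were chosen on their NST values, which favours NST in such medians. Over the 380 of the 383 rises from the other settings that were tested in all regions together, the difference NST minus HY had a median of -0.03 and NST minus TN one of 0.04. Over the 115 falls from the other settings these medians were -0.03 and -0.12, with 47 and 34 of the 115 differences above 0. An unadjusted p under 0.05 (edgeR) was found for 9.57% and 13% of these falls, against 3.71% and 7.9% of all tested genes. None of them passed after adjustment.

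Tested within males, edgeR called no gene with a response in NST that differed from that in HY or in TN. Over 14334 genes edgeR with the male as a block called 0 for NST minus HY, with 532 at an unadjusted p under 0.05, and 0 for NST minus TN, with 1136. DESeq2 called 1 gene in each comparison. Without control male 63 the count for NST minus TN was 233, of which 119 had a higher and 114 a lower change in NST, and 4 of these 233 were among the 126 rises. The deviations of male 63 from its group means correlated less between NST and TN than those of the other males (r = 0.364, against 0.397 to 0.663), and its NST library had the highest correlation with the TN median among the 10 KFC libraries of NST, 0.988. The part of the dissection in this was not tested. Without LPS male 65, 1 gene passed for NST minus TN.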

How the data were processed

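Polyadenylated RNA was sequenced from NEBNext Ultra libraries, per the labels' protocols. The deposited values are whole-number read counts per gene and not normalized. HISAT2 and HTSeq 0.6.1 are named in the submitters' processing notes. Neither notes nor labels name a genome build, annotation or strand setting. How reads of overlapping or near-identical genes were counted is therefore not known, and the counts of such genes may be off. Numbers in the labels recur across regions and were taken to mark males, so replicates are separate males.

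The test was the quasi-likelihood test of edgeR 4.0.16 under R 4.3.3 (filterByExpr with minimum count 10 and minimum total 15, TMM scaling, trended dispersion, robust quasi-likelihood fit). The 8 groups of the 46 NST libraries were fitted together; regions were compared in the 30 KFC libraries with the male as a block. The block comes from the design, in which each male gave all regions; deviations from group means correlated at 0.496 to 0.632 (NST with HY) and 0.364 to 0.663 (NST with TN) in 10 of 10 males. Tests were 2-sided, adjusted over all genes, with a threshold of 0.05. SE values were derived from the change and its F statistic. Response levels used log2 CPM with a prior count of 2. Alternatives included DESeq2 1.42.0. The models were run on simulated counts with known changes. These were drawn without a shared effect of the male, so they do not test the block. Among 20 pairs of KFC libraries of the same NST group the lowest chi-square per gene was 11.7, so none were merged.

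The named genes are, among called genes with a mean of at least 1 CPM, the rise and the fall with the largest change and those with the highest control level; gene lists and markers by symbol could not be used. Groups, lists and rules were chosen with earlier results of these data known. Figures were drawn with matplotlib 3.10.9.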

Additional observations from a re-analysis of the deposited data

Results flagged for a closer look

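LPS male 67 stood apart from the other 4 LPS males in 3 of 19 groups of 5 values examined, and chance alone flags about 1 group in 20. The 19 groups include those of control males, in which male 67 has no value, so its share among the LPS groups is higher. Its response level in NST was 2.64, with the next LPS male at 2.11, and the gap made up 0.712 of the whole range of the group, above the critical value of 0.710. In HY its response level was 2.71, with the next male at 2.14, and at 0.708 of the range this gap just missed the critical value. In TN its response level was 2.36, with the next male at 2.01 (0.749 of the range). The level of ENSTGUG00000013118 in NST was 18 CPM in male 67 and 3.44 CPM in the next male (0.813 of the range). This gene was chosen for its fitted rise in these same libraries, 8.47 on the log2 scale and 6.66 without male 67. Its flag therefore cannot be held against the rate expected by chance. The 3 flagged values come from 1 animal and are not independent. Male 67 had 9749042 counts in NST, within the range of the other LPS males.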

How the results depend on the processing

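The test of LPS in NST of KFC males called 145 genes. Its counts stayed within 1.5 times with RLE scaling, without a filter on low counts and without 3 NF libraries. Those were the NST libraries of NF males 3, 4 and 19. Males 3 and 4 correlated better with the median of another region than with that of NST. Male 19 did not, with r = 0.9893 for NST, 0.9855 for HY and 0.9775 for TN. A fit to the 10 KFC libraries alone called 48 genes, 44 higher and 4 lower; this fit rests on fewer libraries, and ENSTGUG00000013118 did not pass its filter. DESeq2 called 222, of which 43 lower. Leaving out 1 KFC library gave 99 to 159 genes, 79 to 133 higher and 10 to 26 lower. The difference of the response between KFC and the other settings gave 0 to 1 genes. Between NST and HY leaving out 1 male gave 0 genes throughout, and between NST and TN 0 to 233; DESeq2 gave 1 and 1. Without the replicate block for the male both counts were 0, so the pairing changed no call. No paired analysis was possible between LPS and control because no male is in both arms. Added after seeing the data, the comparison of KFC with the other settings gave 4 to 6 genes among control males and 0 to 1 among LPS males without single libraries, and 3 and 1 without a filter. The difference in response level between LPS and control males in NST moved from 0.926 to 1.01 with a prior count of 0.5. This shift was smaller than the SD between LPS males. The 4 named genes kept their direction in every alternative that gave them a value; the cause of lost calls was not tested. Depth limits low genes: a count of 0 allows up to 0.307 CPM.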

Other observations

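The gain after LPS was taken as the difference of the group means, in which LPS male 67 weighed most. Its rises took 10660 CPM, against 4308 to 6183 CPM in the other LPS males. The 5 rises with the largest gain in CPM accounted for 30.5% of the summed gain of the 126 genes, and the first of them for 9.04%, with a mean of 343 CPM in LPS males and 8.75 CPM in control males. The number of genes with at least 1 count was 15512 to 15840 in LPS libraries and 15623 to 15764 in control libraries, so the groups overlapped. Of the 126 rises, 2 had no count in any of the 5 control libraries. Taken singly, no other setting of NST and no other region of KFC males held 9 of the rises and 6 of the 19 falls. The test of the mean of ISO, KF and NF did hold part of these 9 and of these 6. It held 115 of the 126 rises and 15 of the 19 falls, where 2.71% of tested genes rose and 0.815% fell. In that test 3 of the rises and 2 of the falls were not tested.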
